A study of Mus musculus with 16 samples.

Results

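Splenic B cells of mice fed acetylated high-amylose starch were compared with those of mice fed the same starch without acetate, across all expressed genes. The comparison takes the 4 libraries of the HAMSA diet, numbered 1, 2, 3 and 6 in the labels, and the 4 libraries of the HAMS diet, numbered 1, 4, 5 and 6. These are 8 of the 16 libraries of the series, and the other 8 come from the NP diet and from HAMSB, the butyrylated starch. All mice were NOD.LT, 15 weeks old, and had eaten their diet for 5 weeks. HAMS is high-amylose maize starch, and HAMSA is that starch with acetate bound to it as an ester, so both groups shared the resistant starch and differed in the acetate. The cells were what remained after antibodies and columns held back the other lymphocytes of the spleen, so cells that escape the antibodies stay in the preparation. The submitters' design text gives 4 samples a diet and, in the same sentence, triplicates. The labels do not tie libraries to animals, so the p-values measure the spread between these libraries, which may be technical in part.

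NOD mice develop autoimmune diabetes, and their B cells take part as antigen-presenting cells that display islet antigens to T cells. High-amylose starch resists digestion, reaches the colon, and is fermented there to short-chain fatty acids, while the esterified starch also releases the acid that it carries. Acetate can act on cells through the receptors Ffar2 and Ffar3, can be made into acetyl-CoA by the Acss enzymes, and can feed histone acetylation. The question that the pair of diets poses is what the added acetate does to B cells, with antigen presentation and B cell states at the centre.

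The libraries held 31826691 to 37929476 gene counts on HAMS and 15053965 to 30723337 on HAMSA, and the ranges did not overlap. Of 8 measures of the libraries, the total count had the smallest exact permutation p of 0.0286, which is the smallest that 4 against 4 allow, and 0.229 after adjustment over the 8 measures. A mean of 11.3% ± 1.09 (SD, n = 4) of reads lay outside annotated exons on HAMSA, against 13.8% ± 2.25 (n = 4) on HAMS. The label of the cells was borne out by their markers. The 15 genes of B cell identity, among them Ms4a1, Cd79a and Pax5, summed to between 23090 and 33270 CPM on HAMS and between 27230 and 33420 on HAMSA. CPM are counts scaled to a common library size after TMM normalisation. T cell markers summed to between 91.3 and 397 CPM over the 8 libraries and erythroid markers to between 153 and 6967 CPM, so RNA of other cells was present, with the most erythroid RNA on HAMSA.

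No gene passed the test between the acetylated and the plain starch. In edgeR's quasi-likelihood test 15021 genes were tested, and 0 were higher (0%) and 0 lower (0%) on HAMSA at a Benjamini-Hochberg adjusted p under 0.05. The smallest adjusted p was 0.300, shared by 209 genes. At an unadjusted p under 0.05 there were 942 higher genes (6.27%) and 809 lower genes (5.39%). DESeq2 on the same model called 103 genes, 67 higher and 36 lower, and limma voom called 0. In 406 genes (2.70%) all 4 HAMSA libraries lay above all 4 HAMS libraries, and in 197 genes (1.31%) all lay below, 4.01% in either direction. Over all genes 50% had a value above 0 and 50% one below, an even split that TMM normalisation favours. For most genes the comparison was precise to within 2-fold. The median standard error of a log2 fold change was 0.18, beside a median absolute log2 fold change of 0.186. For 73.4% of genes the 95% interval lay within a 2-fold change in either direction, and for 49.2% within a 1.5-fold change. Among the 6204 genes at an average log2 CPM of 5 or more the share within 2-fold was 95.6%.

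The genes that sense and use acetate are described first. Of the 5 receptors for short-chain fatty acids 3 were tested. Ffar2, the acetate and propionate receptor, had 21.4, 20.1, 13.5 and 3.49 CPM in HAMS libraries 1, 4, 5 and 6 and 15.8, 34.8, 30.6 and 12.7 CPM in HAMSA libraries 1, 2, 3 and 6. The groups overlapped, with HAMS 6 the lowest of the 8 and HAMSA 2 the highest, and the log2 fold change was 0.68 ± 0.60 (SE). Ffar3, a related receptor, lay at 0.21 ± 0.42 (SE), with no library above 2.06 CPM. Hcar2, which binds butyrate and niacin, stayed at or below 1.06 CPM in all 8 libraries and had the highest value of the 3, 2.0 ± 0.82 (SE), with 1 to 33 counts a library on HAMSA and 2 to 8 on HAMS. All 3 had higher values, 1 of them, Hcar2, at an unadjusted p under 0.05, with a median of 0.68. That median was 0.39 without HAMS 6, 0.43 without HAMSA 2, and -1.15 among the libraries numbered 5 and 6, where HAMSA has 1 library. The olfactory-type receptors Olfr78 and Olfr558 had 0 counts in the 8 libraries. In neutrophils and macrophages Ffar2 and Hcar2 are also expressed, and the summed neutrophil markers ranged from 9.35 to 129 CPM on HAMS and from 94.3 to 379 on HAMSA. Their part in the receptor values was not tested. In bulk RNA, fewer cells of a type and less RNA per cell cannot be told apart.

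Carriers of short-chain acids and their chaperones mostly had higher values. Slc16a1, the transporter MCT1 that moves lactate and acetate with a proton, had 13.3, 8.75, 13 and 10.8 CPM on HAMS and 21, 29.5, 11.7 and 14.7 CPM on HAMSA, a log2 fold change of 0.75 ± 0.34 (SE). Its HAMSA library 3 lay within the HAMS range. Slc16a3, the lactate exporter MCT4, had 1.13, 0.729, 0.906 and 1.39 CPM on HAMS and 1.96, 3.41, 1.86 and 1.4 CPM on HAMSA. Its groups did not overlap, with HAMSA 6 just above HAMS 6, and the log2 fold change was 1.05 ± 0.38 (SE). Bsg, the chaperone that brings these carriers to the membrane, lay at 0.27 ± 0.14 and Emb, a related one, at 0.91 ± 0.46. Of the 5 genes of this list tested, Bsg and Emb among them, 4 had higher values and 1 a lower one, -0.35. Of the higher ones 2 reached an unadjusted p under 0.05 in edgeR, and the list median was 0.75 against 0 over all genes. It was 0.47 without HAMSA 2, 0.30 in a fit with the percentage of reads outside exons as a covariate, 0.19 with a replicate block and 0.03 among numbers 5 and 6, with 0 of 5 at an unadjusted p under 0.05 in each.

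Enzymes that turn acetate into acetyl-CoA lay close to equality. Acss1, the mitochondrial acetyl-CoA synthetase, had 216, 197, 186 and 174 CPM on HAMS and 206, 209, 216 and 181 CPM on HAMSA. The log2 fold change was 0.07 ± 0.09 (SE), with a 95% interval of -0.11 to 0.25. Acss2, the cytosolic and nuclear form, lay at 0.21 ± 0.17 with an interval of -0.15 to 0.57. Acly, which makes acetyl-CoA from citrate, lay at -0.02 ± 0.08 with an interval of -0.20 to 0.16. A 1.5-fold change in either direction lay outside each of these intervals. Of 14 acetyl-CoA enzymes tested 7 had higher and 7 lower values, 0 reached an unadjusted p under 0.05, and the median was 0.01.

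Enzymes that add or remove acetyl groups gave a similar picture. Among the 11 histone deacetylases 8 had lower values, with a median of -0.06, and 1 reached an unadjusted p under 0.05. That gene was Hdac9, a class II deacetylase, with 37.2, 36.6, 54.8 and 40.4 CPM on HAMS and 31.9, 24.4, 11.9 and 38.5 CPM on HAMSA and a log2 fold change of -0.66 ± 0.25 (SE). HAMSA 6 lay among the HAMS libraries. The main class I enzymes lay nearer to 0, with Hdac1 at -0.06 ± 0.09 and Hdac3 at 0.01 ± 0.12. Of 10 lysine acetyltransferases 7 had lower values, with a median of -0.15 (-0.10 without HAMSA 3), and Ep300, the p300 coactivator, lay at -0.39 ± 0.25. The 7 sirtuins had a median of 0.00, and of -0.07 without HAMSA 3.

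Genes of MHC class I presentation had small differences with narrow intervals, and 0 of 23 reached an unadjusted p under 0.05. H2-K1, a classical class I heavy chain, had 1525, 1231, 849 and 1003 CPM on HAMS and 940.3, 1325, 1477 and 1020 CPM on HAMSA, and the log2 fold change was 0.05 ± 0.19 (SE) with an interval of -0.35 to 0.45. H2-D1 lay at 0.04 ± 0.14, B2m, the light chain, at -0.09 ± 0.16, and Tap1, a subunit of the peptide transporter, at -0.04 ± 0.11. Of these class I genes 13 had higher and 10 lower values, between -0.19 and 0.14, with a median of 0.02. In the fit adjusted for reads outside exons the median was -0.14, with 3 of 23 higher. Class II genes divided evenly, with 8 of 16 higher, a median of 0.01 (-0.14 among numbers 1 to 4 and 0.17 among 5 and 6) and Cd74, the invariant chain, at 0.12 ± 0.17. H2-Ob, a chain of the H2-O inhibitor of peptide loading, was the single class II gene at an unadjusted p under 0.05 and lay at -0.26 ± 0.11. Class I and class II H2 genes have similar copies, and reads that fit several places were not counted.

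Ligands for T cell costimulation had 5 higher and 6 lower values, with a median of -0.10. With 1 library left out the median ran from -0.23 without HAMSA 6 to 0.00 without HAMS 1, and it was 0.01 with the replicate block and 0.12 among numbers 5 and 6. Cd86, a ligand of CD28, had 61.9, 61.5, 85.2 and 107 CPM on HAMS and 60.6, 62.9, 66.6 and 65.2 CPM on HAMSA. The HAMSA libraries were close together and near HAMS libraries 1 and 4, while HAMS 5 and 6 stood higher, and the log2 fold change was -0.31 ± 0.16 (SE) with an interval of -0.64 to 0.03. Cd80, the other CD28 ligand, lay at -0.10 ± 0.25 and Cd40, which receives T cell help, at 0.06 ± 0.12. Pdcd1lg2, the PD-1 ligand PD-L2, had 10.4, 11.5, 12.5 and 11.3 CPM on HAMS and 10.3, 8.84, 7.86 and 9.22 CPM on HAMSA without overlap, and its log2 fold change was -0.34 ± 0.13 (SE). Tnfsf9, the 4-1BB ligand, lay at -0.75 ± 0.32.

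**Figure D1:**
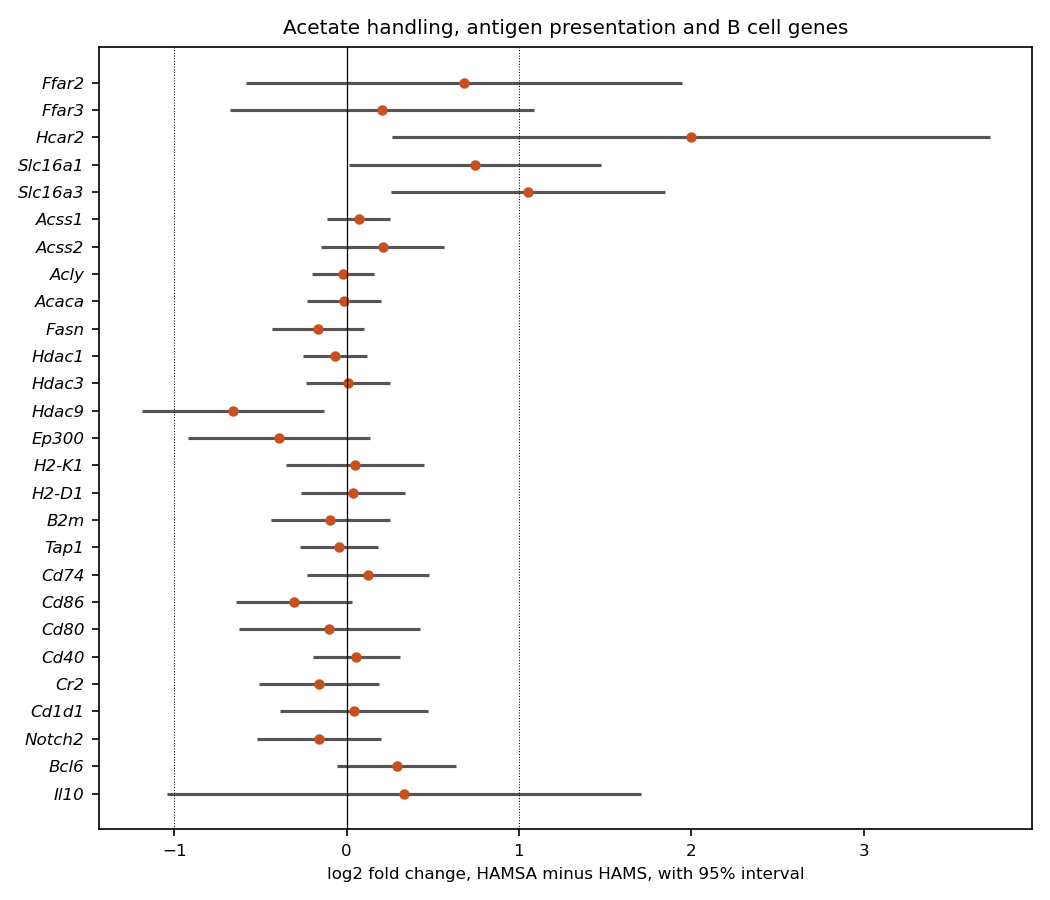
Log2 fold change of single genes, HAMSA minus HAMS (horizontal axis), with 95% intervals from edgeR. Points are estimates over 4 libraries a diet and dotted lines mark 2-fold changes. Acss1, Acly, Hdac1, H2-D1 and Tap1 have intervals inside the dotted lines, whereas those of Ffar2, Hcar2 and Il10 are wide.

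B cell states were described by their marker lists. The B cell identity list had 7 higher and 8 lower values and a median of -0.01, with Ralgps2, a guanine nucleotide exchange factor, at -0.30 ± 0.10 and Spib, an Ets factor of B cells, at -0.22 ± 0.10. The marginal zone list had 8 of 11 higher values and a median of 0.15, which turned to -0.07 without HAMS 6 and to -0.13 in the fit adjusted for reads outside exons, and was 0.30 without HAMS 5 and 0.10 without HAMSA 2. Its members Cr2, the complement receptor CD21, at -0.16 ± 0.16, Cd1d1, which presents lipids, at 0.04 ± 0.20, and Notch2, the receptor that drives the fate, at -0.16 ± 0.17, lay near 0. Bcl6, the germinal centre repressor, had 69.5, 90.8, 64.9 and 102 CPM on HAMS and 114, 93.7, 86.2 and 105 CPM on HAMSA and a log2 fold change of 0.29 ± 0.16 (SE). All 8 tested genes of transitional B cells had higher values, with a median of 0.49, or 0.22 with the replicate block and 0.25 in the adjusted fit. Sox4, a factor of early B cells, had 3.94, 2.44, 2.89 and 2.78 CPM on HAMS and 7.07, 5.49, 4.39 and 4.26 CPM on HAMSA without overlap, and lay at 0.82 ± 0.26 (SE). Tifa, an adaptor of NF-kappaB signalling, lay at 0.40 ± 0.12, also without overlap. Plasma cell genes had higher values in 10 of 11, with a median of 0.37. It was 0.23 without HAMS 6, 0.20 with the replicate block, 0.08 among numbers 1 to 4 and 0.07 in the adjusted fit. Their member Slamf7, a SLAM receptor, lay at 0.42 ± 0.13. Il10, the cytokine of regulatory B cells, stayed at or below 0.571 CPM in the 8 libraries, and its interval of -1.04 to 1.71 leaves its direction unknown.

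Plaur, Crem and Nr4a1 had the 3 lowest p-values of the comparison. Crem and Nr4a1 belong to the list of the cAMP and CREB response and Plaur to that of activation antigens. Plaur, the urokinase receptor (chr7:24462484-24475968, + strand), had 224, 264, 222 and 199 CPM in HAMS libraries 1, 4, 5 and 6 and 134, 139, 153 and 148 CPM in HAMSA libraries 1, 2, 3 and 6. Every HAMSA library lay below every HAMS library, and the log2 fold change was -0.66 ± 0.11 (SE). With 209 genes at the same adjusted p of 0.300 in edgeR, Plaur did not pass the test. Its mean on NP was 106 CPM and on HAMSB 94.6 CPM, so HAMSA lay between HAMS and both of them. In the fit adjusted for reads outside exons Plaur was the single gene past the threshold, with an adjusted p of 0.0205 in edgeR. It also passed in DESeq2, among the libraries numbered 1 to 4 and without HAMSA 6, and its adjusted p over the 23 alternatives ran from 0.000264 to 0.854.

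Nr4a1, an orphan nuclear receptor induced within minutes by receptor signals (chr15:101254269-101274795, + strand), had 69.4, 112, 73.4 and 111 CPM on HAMS and 47.7, 39.8, 36.5 and 64.7 CPM on HAMSA. The groups did not overlap, HAMSA 6 was the highest of its diet, and the log2 fold change was -0.95 ± 0.18 (SE). Crem, a repressor and activator of cAMP-responsive genes, had 25.8, 71.6, 67.8 and 86.7 CPM on HAMS and 17.6, 16.3, 14.8 and 34 CPM on HAMSA. Here HAMS 1 stood well below the other HAMS libraries and below HAMSA 6, so the groups overlapped, and the log2 fold change was -1.61 ± 0.31 (SE). Crem passed the threshold of edgeR without HAMS 1 and without HAMSA 6, at a log2 fold change of -1.88 and -1.95, and its adjusted p over 23 alternatives ran from 0.00141 to 0.854. Sik1, a kinase induced by cAMP that restrains CREB coactivators, had 280.5, 329.7, 347 and 421 CPM on HAMS and 123, 74.1, 121 and 282 CPM on HAMSA. Its log2 fold change was -1.2 ± 0.29 (SE), and HAMSA 6 exceeded HAMS 1. Nr4a3, a relative of Nr4a1, lay at -1.09 ± 0.30 with the same overlap. The 12 genes of the cAMP and CREB response had 11 lower values and a median of -0.49, with 5 lower and 1 higher at an unadjusted p under 0.05. The median was -0.28 without HAMSA 3, -0.31 with the replicate block and -0.32 among numbers 5 and 6.

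The immediate early list as a whole was split, with 14 of 25 genes higher, a median of 0.12 (0.05 without HAMS 5 and 0.03 without HAMSA 1), and 5 higher and 6 lower at an unadjusted p under 0.05. Dusp5, a nuclear phosphatase of ERK (chr19:53529109-53542431, + strand), had 22.3, 25.4, 23.9 and 30.7 CPM on HAMS and 10.4, 10.3, 8.19 and 17.8 CPM on HAMSA. The groups did not overlap and the log2 fold change was -1.13 ± 0.23 (SE). Dusp1, a phosphatase of p38 and JNK, had 43.1, 45.9, 56.6 and 66.5 CPM on HAMS and 31.1, 18.4, 17.8 and 38.6 CPM on HAMSA without overlap, and lay at -1.0 ± 0.25 (SE). Ier5, a regulator of heat shock factor, went the other way, with 304, 320.5, 306 and 341 CPM on HAMS and 402, 397, 392 and 373 CPM on HAMSA, again without overlap, at 0.30 ± 0.08 (SE). Cd69, an early activation antigen that holds lymphocytes in tissue, had 75.3, 66.3, 68.4 and 94.8 CPM on HAMS and 48.9, 35, 41.1 and 53.8 CPM on HAMSA and lay at -0.77 ± 0.16 (SE), with no overlap. Cd83, another activation antigen, lay at -0.59 ± 0.17.

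Promoters of Nr4a1 and Dusp1 are shown because cAMP-responsive elements lie close to their starts and both genes had lower values in every HAMSA library. The sequences are RefSeq's, build GRCm38.p6, from 250 bases before to 20 after the start. Nr4a1 lies at chr15:101266596-101266865, + strand, and the capitals mark TGACG or its reverse complement, the short form of the element, found 4 times. Dusp1 lies at chr17:26508453-26508722, - strand, and the capitals mark the full palindrome TGACGTCA, which begins 143 bases before the start.
Nr4a1: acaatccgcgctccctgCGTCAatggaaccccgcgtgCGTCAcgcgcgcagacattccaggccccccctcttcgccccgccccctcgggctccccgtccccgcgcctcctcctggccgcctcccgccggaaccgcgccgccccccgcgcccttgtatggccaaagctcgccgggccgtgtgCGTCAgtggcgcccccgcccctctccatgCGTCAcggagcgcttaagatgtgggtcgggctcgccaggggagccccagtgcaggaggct
Dusp1: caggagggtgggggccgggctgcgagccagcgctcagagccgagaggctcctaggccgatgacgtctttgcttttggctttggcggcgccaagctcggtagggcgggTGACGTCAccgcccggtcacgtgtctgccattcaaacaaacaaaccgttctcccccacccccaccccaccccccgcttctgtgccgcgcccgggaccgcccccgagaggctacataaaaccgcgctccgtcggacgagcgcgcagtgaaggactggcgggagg
Both strands of each window of 300 bases were searched. The full palindrome, which contains the short form, was found in 1.79% of all 32851 promoters, and over genes in 2.03%, in 3 of 21 immediate early genes, and in 0 of 9 cAMP and CREB genes with a promoter entry. The short form was found in 23% of all genes, in 6 of these 9 cAMP and CREB genes, in 14 of the 21 immediate early genes, in 10 of 17 heat shock genes, in 7 of 10 of the lower named genes and in 5 of 11 of the higher ones. A match describes letters, not binding.

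**Figure D2:**
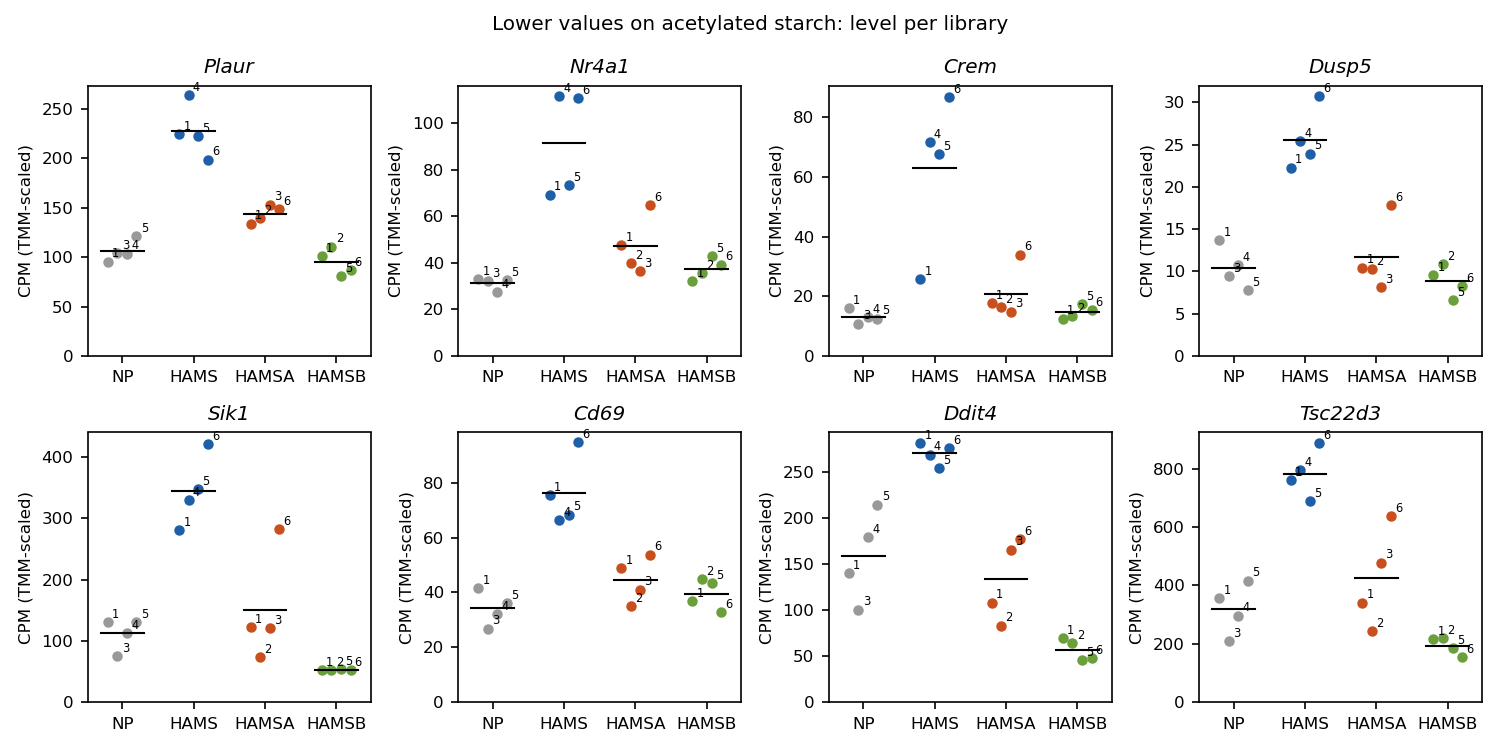
Level of 8 genes in each library, in TMM-scaled CPM (vertical axis, from 0), by diet (horizontal axis). Each point is a library with its number in the labels and bars are means of 4 libraries. In Plaur, Nr4a1, Dusp5, Cd69, Ddit4 and Tsc22d3 all HAMSA points lie below all HAMS points, and in Crem and Sik1 they overlap.

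Glucocorticoid-responsive genes had lower values in 9 of 13, 5 of them at an unadjusted p under 0.05, with a median of -0.26. Leaving out 1 library gave -0.51 without HAMSA 6, -0.44 without HAMS 1, -0.15 without HAMSA 3 and -0.14 without HAMS 6, and the median was -0.06 among numbers 1 to 4 and -0.09 in the adjusted fit. Ddit4, an inhibitor of mTORC1 signalling, had 281, 269, 254 and 276 CPM on HAMS and 108, 83.4, 166 and 177 CPM on HAMSA. The 4 HAMS libraries lay within a narrow band and all HAMSA libraries below it, and the log2 fold change was -1.02 ± 0.24 (SE). Tsc22d3, the glucocorticoid-induced leucine zipper, had 760.1, 795, 688 and 887 CPM on HAMS and 341, 243, 479 and 638 CPM on HAMSA without overlap, and lay at -0.88 ± 0.25 (SE). Both had their highest mean of the 4 diets on HAMS, with 159 CPM of Ddit4 and 319.7 CPM of Tsc22d3 on NP.

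The remaining lower genes named by the rule are not of 1 pathway. Trim25, an E3 ligase of antiviral sensing, had 409.7, 414, 502 and 551 CPM on HAMS and 278, 222, 240.0 and 395 CPM on HAMSA, at -0.73 ± 0.15 (SE). Il10ra, the binding chain of the IL-10 receptor, had 598, 683, 518 and 568 CPM on HAMS and 368, 311, 385 and 515 CPM on HAMSA, at -0.58 ± 0.13 (SE). Gpr132, a lysophospholipid-related receptor of lymphocytes, had 156, 184, 160.0 and 191 CPM on HAMS and 116, 111, 129.8 and 144 CPM on HAMSA, at -0.46 ± 0.11 (SE). In these 3 genes HAMSA 6 was the highest of its diet. Tpm4, a tropomyosin of the actin skeleton, lay at -0.54 ± 0.12, and Vamp4, a vesicle fusion protein, at -0.41 ± 0.09. Mir22hg, the host transcript of miR-22, lay at -0.76 ± 0.15, and Zfp940, a zinc finger gene, at -0.52 ± 0.12. All 12 lower genes named by the rule shared the adjusted p of 0.300 in edgeR, all 12 had their highest mean of the 4 diets on HAMS, and all 12 were called by DESeq2. The rule chose them for low p and lack of overlap in these same counts, which favours both outcomes, so these are not separate support.

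Heat shock genes had lower values on HAMSA in 21 of 21, with a median of -0.49, and 8 reached an unadjusted p under 0.05. In 0 of the 21 did the groups separate. Dnaja1, a co-chaperone of Hsp70, had 202, 355, 303 and 337 CPM on HAMS and 173, 113, 80.6 and 307 CPM on HAMSA, at -0.83 ± 0.30 (SE). HAMSA 6 and HAMS 1 stood opposite to the other libraries of their diets. Cacybp, a partner of ubiquitin ligases, had 95.1, 168, 134 and 137 CPM on HAMS and 91.9, 69, 56.1 and 130.0 CPM on HAMSA, at -0.62 ± 0.23 (SE). Hspa4, an Hsp70 exchange factor, lay at -0.26 ± 0.09. Chordc1, a co-chaperone of Hsp90, had 112, 175, 206 and 206 CPM on HAMS and 111, 82.3, 62.2 and 174 CPM on HAMSA, at -0.70 ± 0.26 (SE). The mean log2 CPM of the list was 6.19, 7.15, 6.59 and 6.86 in HAMS libraries 1, 4, 5 and 6 and 6.16, 5.72, 5.38 and 6.92 in HAMSA libraries 1, 2, 3 and 6. Within the libraries numbered 5 and 6, where HAMSA has 1 library, the sign turned, with a median of 0.18 and 16 of 21 higher values, and without HAMS 4 the median was -0.31. Without HAMSA 6 it was -0.81 and Dnaja1 passed the threshold in edgeR. HAMS had the highest mean of the 4 diets in 20 of the 21 genes.

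The promoter of Chordc1 is shown as an example of a heat shock element in the list, at chr9:18292017-18292286, + strand in GRCm38.p6 (RefSeq). The capitals mark 3 overlapping matches of GAANNTTCNNGAA, which heat shock factors bind, and the first begins 4 bases before the start.
Chordc1: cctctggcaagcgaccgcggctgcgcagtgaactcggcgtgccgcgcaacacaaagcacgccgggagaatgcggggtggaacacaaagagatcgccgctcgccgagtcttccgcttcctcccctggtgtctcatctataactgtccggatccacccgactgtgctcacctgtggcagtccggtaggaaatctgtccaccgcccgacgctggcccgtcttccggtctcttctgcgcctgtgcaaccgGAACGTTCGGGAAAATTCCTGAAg
This element was found on either strand in 0.603% of all promoters, or 0.662% of genes, and in 4 of the 17 heat shock genes with an entry.

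**Figure D3:**
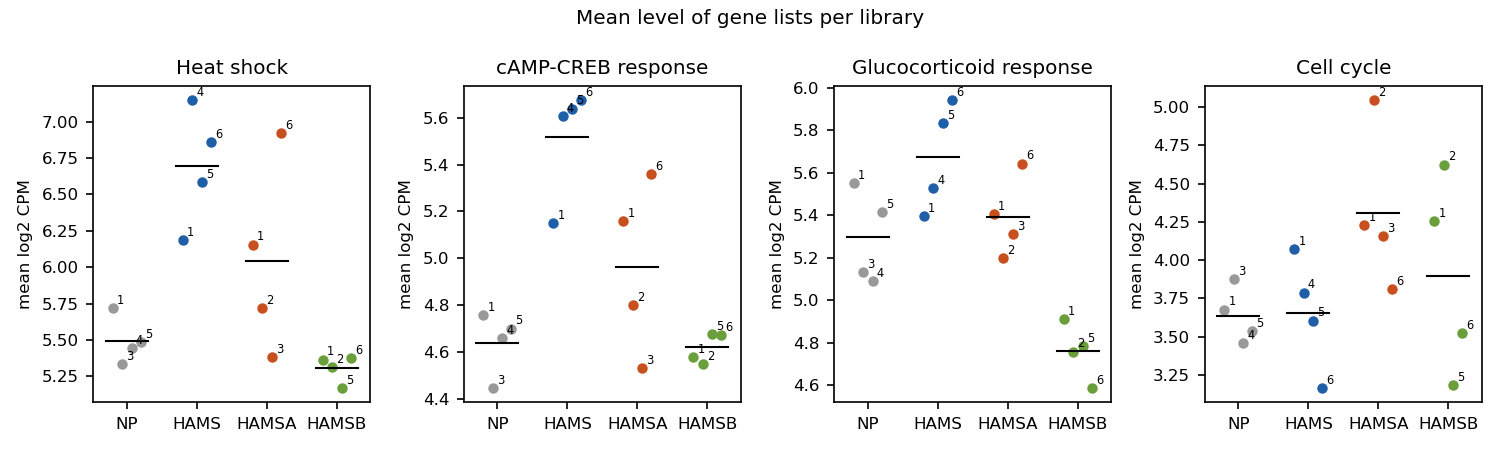
Mean log2 CPM of 4 gene lists (vertical axis, cropped) in each library by diet (horizontal axis). Points are libraries with their numbers in the labels and bars are means of 4 libraries. In the heat shock panel HAMSA 6, at 6.92, lies among the HAMS libraries, and HAMSA 2 has the highest cell cycle value, 5.04.

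All 10 TGF-beta pathway genes had lower values, with a median of -0.19, or -0.11 without HAMSA 3, -0.10 with the replicate block and -0.12 in the adjusted fit. Smad7, the feedback inhibitor, lay at -0.39 ± 0.15 and Skil, a repressor of SMADs, at -0.55 ± 0.24. The BAFF pathway list had 3 higher and 5 lower values with a median of -0.03, and the list of B cell receptor signalling 7 higher and 11 lower with a median of -0.04. Tnfrsf13c, the BAFF receptor that keeps B cells alive, had 519.5, 731, 568 and 712 CPM on HAMS and 420.2, 352, 339.8 and 614 CPM on HAMSA, and lay at -0.55 ± 0.16 (SE). Its HAMSA 6 overlapped HAMS, and without HAMSA 6 it passed the threshold in edgeR at -0.77. Bcl3, an atypical inhibitor of NF-kappaB, lay at -0.47 ± 0.14 and Malt1, a protease of B cell receptor signalling, at -0.49 ± 0.19. In the list of follicular and homing genes Klf2, a factor of quiescence and recirculation, had 317, 294, 209 and 319 CPM on HAMS and 405, 397, 486 and 339 CPM on HAMSA. Its groups did not overlap, and the log2 fold change was 0.51 ± 0.15 (SE). Cxcr4, the receptor for Cxcl12, went the other way, with 788, 877, 754 and 978 CPM on HAMS and 328, 256, 484 and 762 CPM on HAMSA, at -0.89 ± 0.27 (SE). HAMSA 6 lay within the HAMS range, and HAMSA 1, 2 and 3 lay far below it.

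The higher genes named by the rule fell into small differences in well-expressed genes and larger ones in scarce genes. Slc15a4, a lysosomal carrier of histidine and peptides needed for Toll-like receptor responses of B cells, had 168, 144, 143 and 146 CPM on HAMS and 185, 192, 193 and 176 CPM on HAMSA, at 0.31 ± 0.08 (SE). Atg13, a subunit of the autophagy kinase complex, had 59.6, 59.7, 52.5 and 61.5 CPM on HAMS and 73.2, 72.8, 73.7 and 68.9 CPM on HAMSA, at 0.31 ± 0.07 (SE). Coro2a, an actin-binding coronin, lay at 0.35 ± 0.08, and Bend5, a transcriptional repressor, at 0.36 ± 0.09. In these 4 genes the groups did not touch, which the rule required. In Slc15a4 HAMS 1 lay nearer to HAMSA 6 than to the other HAMS libraries. Mgll, the monoacylglycerol lipase, had 7.44, 8.34, 6.4 and 5.46 CPM on HAMS and 11.8, 19.1, 13.5 and 11.9 CPM on HAMSA, at 1.03 ± 0.23 (SE).

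Frat2, a regulator of GSK3, lay at 0.75 ± 0.19, Zfp771, a zinc finger gene, at 0.81 ± 0.21, and Tmem238, a small membrane protein, at 1.2 ± 0.28, each with HAMSA 6 nearest to HAMS. Gda, guanine deaminase, had 2.1, 3.17, 2.45 and 2.1 CPM on HAMS and 9.26, 13.1, 6.33 and 18 CPM on HAMSA, at 2.25 ± 0.48 (SE). Bpgm, the red cell enzyme that makes bisphosphoglycerate, had 20.2, 20.8, 15.7 and 15.9 CPM on HAMS and 31.5, 67.1, 23.2 and 121 CPM on HAMSA, at 1.74 ± 0.38 (SE). Tmcc2, a membrane protein of late red cell precursors, lay at 4.85 ± 1.17. The HAMSA libraries with the most Bpgm were 2 and 6, which also held the most erythroid RNA. All 12 higher genes of the rule shared the adjusted p of 0.300 in edgeR and were called by DESeq2. They too were chosen for low p in these same counts, so the DESeq2 calls are not separate support.

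Cell cycle genes had higher values in 39 of 40, with a median of 0.67, and 20 reached an unadjusted p under 0.05 upward and 1 downward. Ube2c, a ubiquitin-conjugating enzyme of mitotic exit, had 8.93, 7.07, 5.14 and 2.26 CPM on HAMS and 12, 37, 14.6 and 10.6 CPM on HAMSA, at 1.66 ± 0.58 (SE), without overlap. Rrm2, a subunit of ribonucleotide reductase, had 20.6, 15.5, 13.5 and 8.46 CPM on HAMS and 31.9, 59.3, 24 and 19.8 CPM on HAMSA, at 1.22 ± 0.44 (SE). Its HAMSA 6 lay below HAMS 1. Mcm7, a subunit of the replication helicase, lay at 0.44 ± 0.16. HAMSA 2 had the highest list mean, and without it the median was 0.40, with 0 of 40 genes at an unadjusted p under 0.05. With the replicate block the median was 0.26, with 2 of 40. In the fit adjusted for reads outside exons the median was 0.07, with 26 of 40 genes higher. HAMSA 2 also had the highest erythroid sum, 6967 CPM, while HAMSA 6, with 6548 CPM, had the lowest cell cycle mean of its diet, a log2 CPM of 3.81. The part of dividing red cell precursors was not tested.

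Glycolysis had a median of 0.08 with Slc2a1 and Slc2a3, glucose carriers, at -0.29 ± 0.13 and -0.30 ± 0.13, and fatty acid oxidation had 14 of 17 higher values and a median of 0.06. In the fit adjusted for reads outside exons these medians turned to -0.09 and -0.07, and with 1 library left out that of glycolysis ran from 0.01 to 0.16 and that of fatty acid oxidation from 0.02 to 0.11. In cholesterol synthesis 15 of 23 values were lower, with a median of -0.11, or -0.16 without HAMS 5. Sc5d, a late desaturase of that pathway, had 20.2, 22.4, 27.2 and 29.9 CPM on HAMS and 14.1, 13.7, 12.9 and 20.3 CPM on HAMSA, at -0.71 ± 0.15 (SE), and HAMSA 6 reached the lowest HAMS library. The 13 genes of the mitochondrial genome had lower values in 13, a median of -0.32, and 0 at an unadjusted p under 0.05. Their median was -0.50 without HAMS 4 and -0.17 without HAMS 5. Type I interferon genes were lower in 22 of 28, with a median of -0.18. Without HAMS 1 the median turned to 0.09, with 19 of 28 higher, and among numbers 5 and 6 to 0.08. It was -0.32 without HAMS 6, -0.28 without HAMSA 2, -0.11 without HAMSA 1, -0.12 without HAMSA 3, -0.45 with the replicate block and -0.51 in the adjusted fit. Rsad2, an antiviral enzyme of that list, had 1.51, 1.08, 0.76 and 0.872 CPM on HAMS and 6.36, 20.4, 0.999 and 23.9 CPM on HAMSA, at 3.6 ± 1.04 (SE), with its high values in the libraries richest in erythroid RNA.

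The highest list medians belonged to other cell types. The erythroid markers summed to 192, 222, 153 and 235 CPM in HAMS libraries 1, 4, 5 and 6 and to 1891, 6967, 744 and 6548 CPM in HAMSA libraries 1, 2, 3 and 6. All HAMSA libraries lay above all HAMS libraries, and HAMSA 2 and 6 far above the others. Alas2, the first enzyme of haem synthesis in red cells, had 1.24, 3.23, 0.818 and 0.711 CPM on HAMS and 50.1, 151, 13.3 and 216 CPM on HAMSA, at 6.17 ± 1.47 (SE). Hbb-bs and Hbb-bt, adult beta globins, lay at 5.96 ± 1.47 and 5.68 ± 1.34, and Hba-a1, an alpha globin, at 5.79 ± 1.41. The globins have near-identical copies, so their counts are uncertain. Car2, carbonic anhydrase, lay at 2.0 ± 0.48, and Fech, the last enzyme of haem synthesis, at 1.15 ± 0.28. Of 22 erythroid genes tested 22 had higher values, 21 at an unadjusted p under 0.05 and 19 without overlap, with a median of 3.93, and 0 passed the adjusted test in edgeR. DESeq2 called 13 of them, and the edgeR fit of libraries numbered 5 and 6, with 1 HAMSA library, called 11. In the fit adjusted for reads outside exons the erythroid median was 2.06.

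The promoter of Alas2 is shown because the gene had the largest of the 6 named erythroid values, at chrX:150547167-150547436, + strand in GRCm38.p6 (RefSeq). The capitals mark AGATAA on the reverse strand, the motif of GATA factors, 86 bases before the start.
Alas2: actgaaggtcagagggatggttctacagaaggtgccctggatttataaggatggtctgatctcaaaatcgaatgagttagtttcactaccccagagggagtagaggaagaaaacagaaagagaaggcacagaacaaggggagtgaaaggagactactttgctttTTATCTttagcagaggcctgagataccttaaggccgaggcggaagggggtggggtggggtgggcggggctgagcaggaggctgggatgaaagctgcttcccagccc
The motif was found on either strand in 11.2% of promoters, or 12.7% of genes, and in 6 of 16 erythroid genes with an entry.

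Markers of white cells were also higher in mean. Neutrophil genes had higher values in 15 of 15, with a median of 2.06, and Csf3r, the G-CSF receptor, had 6.36, 5.83, 2.48 and 10.1 CPM on HAMS and 28.2, 32.8, 12.6 and 10.4 CPM on HAMSA, at 1.77 ± 0.55 (SE). T cell genes had higher values in 22 of 22, with a median of 1.25 and sums of 91.3 to 249 CPM on HAMS and 156 to 397 on HAMSA. Without HAMS 6, the HAMS library with the highest T cell sum, that median was 2.29. NK cell genes were higher in 14 of 14, with a median of 1.58. Monocyte and macrophage genes were higher in 22 of 23, with a median of 0.92, and Cd163, a haemoglobin scavenger receptor, had 0.674, 0.412, 0.467 and 0.194 CPM on HAMS and 1.35, 2.14, 2.73 and 2.29 CPM on HAMSA, at 2.24 ± 0.56 (SE). Dendritic cell genes were higher in 13 of 14, with a median of 0.64, or 0.39 without HAMS 6. In the fit adjusted for reads outside exons the medians were 1.02 for neutrophils, 0.59 for T cells, 0.51 for NK cells, 0.16 for macrophages and 0.16 for dendritic cells. Among numbers 5 and 6 those of neutrophils, T cells and NK cells were 0.40, 0.41 and 0.54. Platelet genes went the other way in 13 of 13, with a median of -0.70, or -0.13 among numbers 5 and 6. Their sums were 407 to 838 CPM on HAMS and 337 to 603 on HAMSA, and Ppbp, a platelet chemokine, lay at -1.03 ± 0.43. Of the 406 genes without overlap and higher on HAMSA, which are 2.7% of all genes tested, 32 belong to the lists of other cells. By list they were 19 of 22 erythroid genes tested, 7 of 23 of monocytes and macrophages, and 3 of 15 of neutrophils. T cells had 2 of 22, NK cells 1 of 14, dendritic cells 0 of 14 and platelets 0 of 13. Mast cells had 0 of 5 and stromal cells 0 of 10. The part of these cells in the differences of genes that they share with B cells was not tested.

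**Figure D4:**
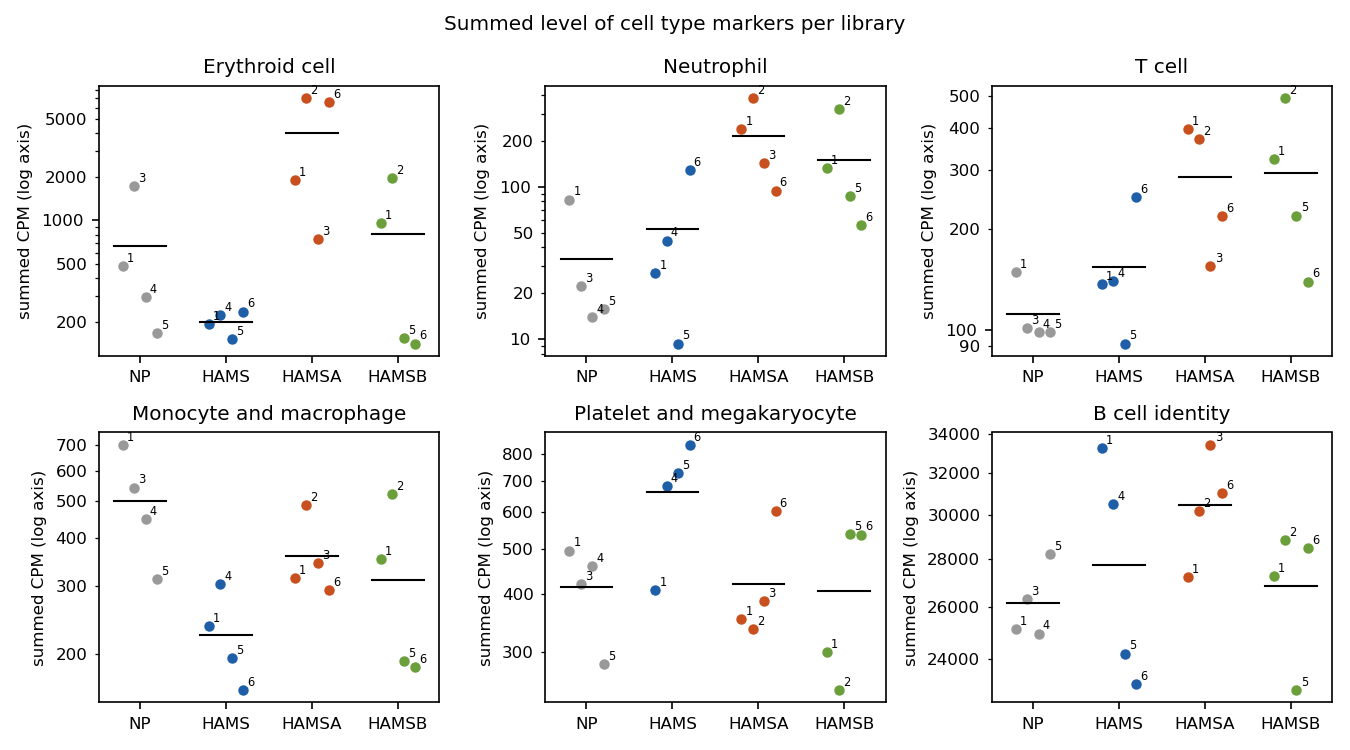
Summed CPM of marker lists (vertical axis, log scale) in each library by diet (horizontal axis). Points are libraries with their numbers in the labels and bars are means of 4 libraries. Erythroid sums on HAMSA, 744 to 6967, all exceed those on HAMS, 153 to 235, and B cell identity sums overlap.

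**Figure D5:**
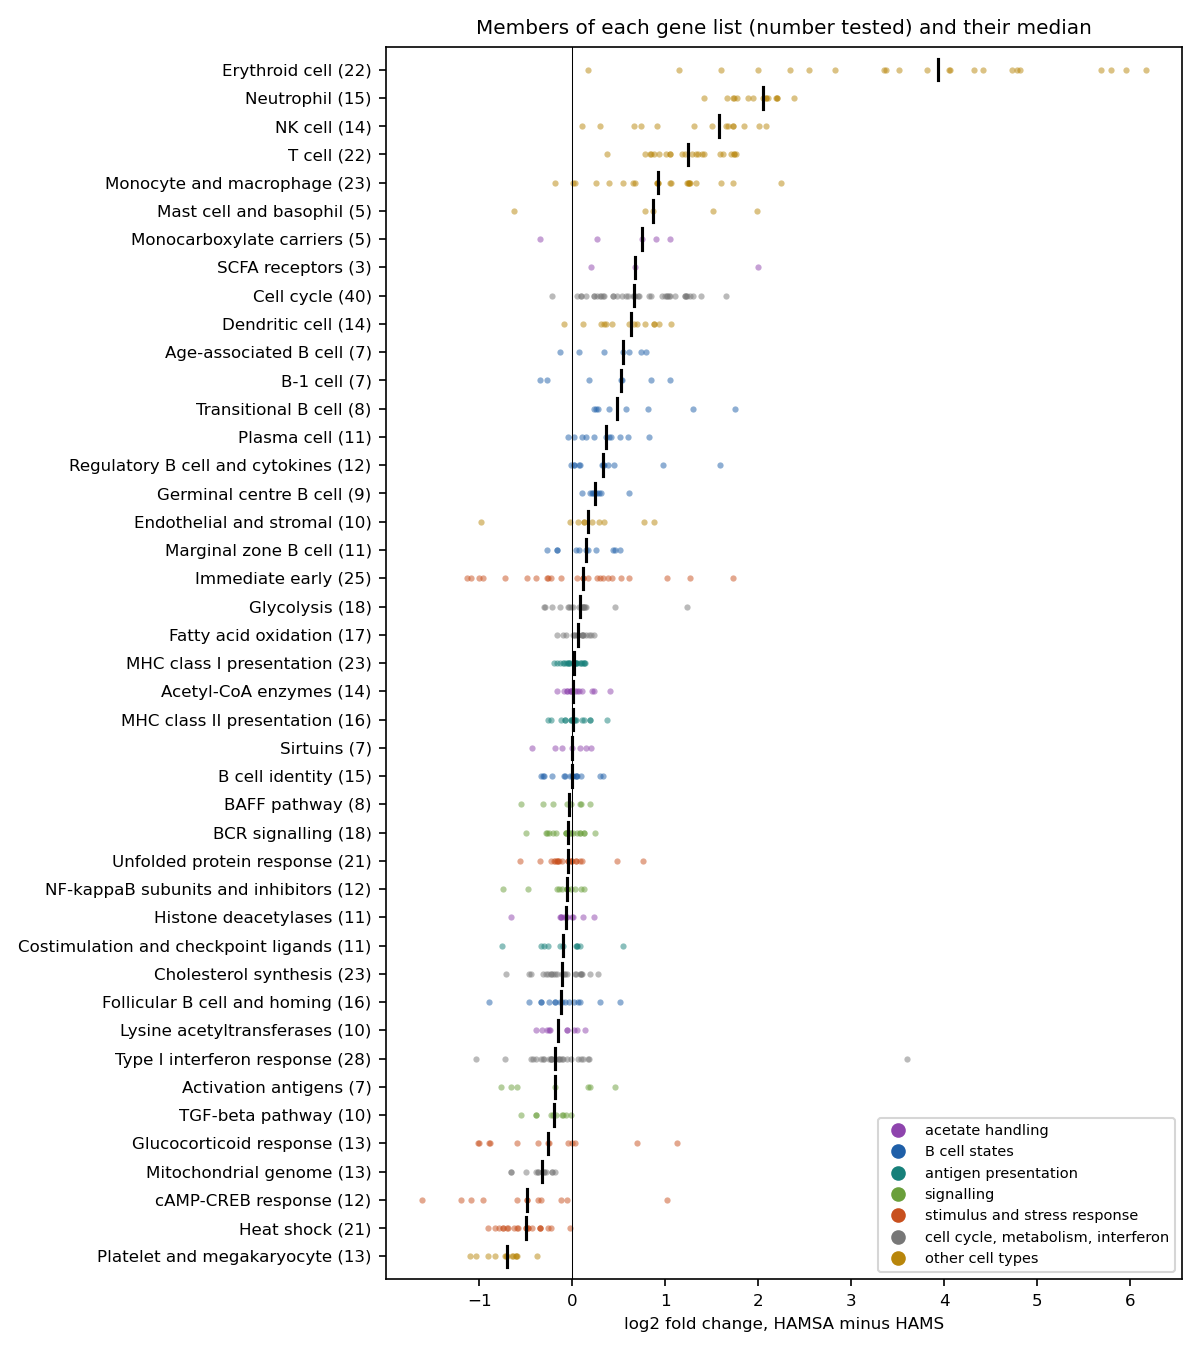
Log2 fold change, HAMSA minus HAMS (horizontal axis), of the tested members of 43 gene lists (rows, with the number tested), coloured by kind of list. Points are genes and black bars are medians. Erythroid genes, with a median of 3.93, and platelet genes, with a median of -0.70, lie at the ends. The medians of the MHC class I, MHC class II and acetyl-CoA lists lie near 0, and that of costimulation ligands at -0.10.

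The same contrast between acetylated and butyrylated starch gives the genes that differed between those diets, not which diet stood apart. It shares the HAMSA libraries with the comparison above and is a test of its own. In edgeR 88 genes were higher (0.586%) and 29 lower (0.193%) on HAMSA than on HAMSB, 0.779% in all. Of the higher genes Ddit4 lay at 1.23 ± 0.24 (SE) with an adjusted p of 0.0267 in edgeR, Sik1 at 1.5 ± 0.30 with 0.0273, Dusp1 at 1.26 ± 0.25 with 0.0273, and Plaur at 0.60 ± 0.11 with 0.0226. Tsc22d3 lay at 1.13 ± 0.25 with 0.0477 and Ier5 at 0.60 ± 0.08 with 0.00798, both in edgeR. Of the higher genes named above, Tmem238, Frat2 and Zfp771 passed the test, and among the lower genes Slamf7 lay at -0.78 ± 0.13 and Cpt1a, the gatekeeper of fatty acid oxidation, at -0.54 ± 0.11. In Plaur, Ddit4, Dusp1, Sik1 and Tsc22d3 the HAMSA mean lay between those of HAMS and HAMSB. Of the 88 higher genes 19 had a HAMSA mean under that of HAMS and 69 one above it. The count was unstable, with 2 calls under the replicate block, 4 when only these diets were fitted, 0 after adjustment for reads outside exons, and 13 to 187 when 1 library was left out.

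Across the 4 diets, plain starch held the extreme mean in most genes that separated the groups. Of the 197 genes without overlap and lower on HAMSA, HAMS had the highest mean of the 4 diets in 143 (72.6%), against 46.1% of all genes with a lower value. Of the 406 without overlap and higher, HAMS had the lowest mean in 335 (82.5%), against 44.5% of all genes with a higher value, and HAMSA had the highest mean in 275 (67.7%), against 60.6%. These are counts of means with no test, and the genes were chosen for separating HAMS from HAMSA.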

How the data were processed

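Poly(A) libraries were stranded, per the labels' protocols. Per the submitters' processing notes the reads were processed with STAR, featureCounts, Subread, edgeR and limma. Versions, genome build and annotation are not given in the sources used here. What the authors deposited are raw counts of reads per gene and library, without scaling, for 39179 genes. The sum of each column equals the assigned reads of the deposited counting summary. Multi-mapping reads and reads on overlapping genes or outside exons are absent from it. Of the identifiers 37607 matched GENCODE M21 (GRCm38), the source of symbols and coordinates, which can differ from the annotation used for counting.

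The counts entered edgeR 4.0.16 (R 4.3.3). Its expression filter, at a minimum count of 10, left 15021 genes. Libraries were scaled by TMM, and the model had 1 mean per diet over all 16 libraries, with 12 residual degrees of freedom. HAMSA was compared with HAMS and with HAMSB by the quasi-likelihood F-test, with Benjamini-Hochberg adjustment over all genes and a threshold of 0.05. Each SE and 95% interval comes from that fit, and CPM means have the SD of 4 libraries. Variation between libraries of a diet was 22.1%. Library measures were compared with two-sided exact permutation tests. The fit was tested on simulated data.

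Named genes have CPM without overlap between the diets and an average log2 CPM of at least 1, with the 12 smallest p in each direction, and 6 of the other-cell lists, aside from immunoglobulin segments, clone names and pseudogenes. To these were added up to 4 members of each of 43 lists with the smallest p, single genes of the question, and a few list members (Hdac1, Hdac3, Cd74) chosen for their roles. One gene that the rule names among the higher ones is not reported here. The members and lists were chosen with earlier results of these data known. The alternatives were DESeq2 1.42.0, voom of limma 3.58.1, RLE or no scaling, other filters, subsets of genes, diets or replicate numbers, thinned counts, a replicate block, a covariate, and leaving out each library.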

Additional observations from a re-analysis of the deposited data

Results flagged for a closer look

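Single libraries that stood apart within a diet were sought in 210 groups of 4 libraries, taking the genes named above and the measures of the libraries. A library was marked where its gap to the nearest of the other 3 exceeded Dixon's 95% critical share of the range. There were 12 such groups, 11 of them genes. Chance alone marks about 1 in 20 groups, which is close to the share marked here. Among the marked groups HAMSA 6 was the library that came up most often. It was high in Crem, at 33.9 CPM against 14.8 to 17.6 in the other HAMSA libraries, in Cd83, at 370 CPM, in Ppbp, at 43.0 CPM, and in Sc5d, at 20.3 CPM, and it was low in Frat2, at 10.3 CPM. In each of these it lay on the side of the HAMS libraries. HAMSA 3 stood apart in Mir22hg, at 5.59 CPM. HAMSA 2 was high in Ube2c, at 37.0 CPM. On HAMS, library 1 was low in Nr4a3, at 7.95 CPM against 15.9 to 16.6 in the others, and in Slc2a3, at 87.0 CPM, and high in Slc15a4, at 168 CPM. HAMS 6 was high in Ffar3, at 1.20 CPM. HAMSA 1 stood apart in depth, with 30700000 gene counts against 15100000 to 17500000 in the other HAMSA libraries.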

How the results depend on the processing

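The count of 0 genes past the test between HAMSA and HAMS held in 10 further edgeR or voom settings, namely voom, RLE scaling, library totals, both other filters, only these 2 diets, immunoglobulin or other-cell genes left out, robust dispersion and thinned counts. DESeq2 called 103, libraries numbered 1 to 4 called 11, those numbered 5 and 6 called 29, and the covariate for reads outside exons called 1. Leaving out 1 library gave 0 to 26, with 26 without HAMSA 6, 3 without HAMS 1 (Crem, Litaf and Vps37b) and 0 otherwise. HAMSA has 1 library among numbers 5 and 6, which is assumed to vary like the other diets. HAMS and HAMSA share numbers 1 and 6, whose libraries correlated in their deviations at -0.25 and 0.258. Like-numbered pairs of the other diet combinations ran from -0.07 (NP 1 and HAMS 1) to 0.491 (HAMSA 2 and HAMSB 2). The main fit did not pair libraries by number, and the replicate block is an alternative. Whether the numbers mark a shared batch was not tested. Some libraries of different diets correlated, with like or with unlike numbers. HAMS 5 and 6 did so with HAMSB 5 at 0.248 (like number) and 0.49. With HAMSB 6 they stood at 0.314 and 0.067 (like number), and with HAMSA 6 at 0.369 and 0.258 (like number). With HAMSA 1 they stood at 0.192 and 0.347, and with HAMSA 2 at -0.304 and -0.212. HAMS 1 stood at -0.436 with HAMSA 6 and at 0.349 with HAMSA 3. The source of this structure was not tested. The replicate block called 0 genes between HAMSA and HAMS and 2 between HAMSA and HAMSB, and moved the erythroid median to 2.72. Between HAMSA and HAMSB DESeq2 called 600, the fit of only these diets 4, numbers 1 to 4 called 10, the covariate 0, and leaving out 1 library gave 13 to 187, with 18, 19 and 187 without HAMSA 2, 3 and 6 and 35, 13 and 27 without HAMSB 1, 5 and 6. Among 8 lists, of acetate receptors, acetyl-CoA enzymes, MHC class I, B cell identity, cAMP response, heat shock, cell cycle and erythroid genes, the median of short-chain fatty acid receptors was -1.15 and that of heat shock 0.18 in numbers 5 and 6, and that of acetyl-CoA enzymes 0.0515 without TMM. With the covariate MHC class I was at -0.14, the cell cycle at 0.0678 and erythroid genes at 2.06. When 1 library was left out the acetyl-CoA median ran from -0.0205 to 0.0482, the heat shock median from -0.81 to -0.31 and the difference in percent of ambiguous reads from -0.00464 to 0.0534. The causes were not tested. Over all 43 lists 49 of 980 medians moved by more than the spread between libraries, and 72 changed sign. A list with a wide spread between libraries can change sign without counting as moved. For lists described above, values under other settings stand beside the medians. Of the 97 tested genes named, 72 kept their sign in every setting. The lower depth of HAMSA limits scarce genes. Counts thinned to 15053965 a library gave 0 calls, but so did the full counts, and thinning only removes reads. That setting therefore cannot tell whether depth shaped the values.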
